A study of Homo sapiens with 15 samples.

Results

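Clone 3 and clone 6 are 2 T-DM1-resistant derivatives of BT474, a human breast cancer cell line in which the gene of the growth factor receptor HER2 is amplified. Their RNA was compared directly, the 3 arrays of clone 3 against the 3 arrays of clone 6, with no parental array in the contrast. These are 6 of the 15 arrays of the series, and the other 9 come from parental cells, labelled as sensitive, and from resistant clones 1 and 2. T-DM1, or trastuzumab emtansine, joins the HER2 antibody trastuzumab to emtansine, a toxin that blocks microtubules. Per the labels, parental cells were exposed to T-DM1 for a long time, the clones were grown from single cells, and both were then kept in 5 nM T-DM1 for 3 months in the medium also given for the parental line. Line of origin, medium and drug culture were thus shared by both groups, and the comparison asks in which genes 2 resistant lines of the same origin differ. Whether the drug was in the medium at harvest is not stated. Each group is 1 clone, so its 3 arrays, which the labels call biological replicates, replicate that clone and not a class of clones.

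T-DM1 enters a cell with HER2 and is degraded in lysosomes, where its toxin is set free to act on the spindle of dividing cells. BT474 cells are of the luminal type, the type of the cells that line the milk ducts, whose identity depends on transcription factors such as GATA3, FOXA1 and the oestrogen receptor ESR1. CEACAM proteins are heavily glycosylated adhesion molecules of the surface of epithelial cells, and their genes lie close together on chromosome 19.

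Values are RMA levels on the log2 scale, on which a difference of 1 is a 2-fold change, and every difference below is clone 3 minus clone 6. Over the 12147 genes tested, arrays of clone 3 correlated with arrays of clone 6 at 0.978 to 0.983 (9 pairs), arrays of clone 3 with each other at 0.990 to 0.991 and arrays of clone 6 with each other at 0.986 to 0.993 (a description over genes that do not vary independently). The 3 arrays of each clone lay together on the first 3 principal components, and no array of one clone lay among those of the other. Of 11 luminal markers 9 had a symbol here, and 8 of them were above the 75th percentile of all 6 arrays. The exception was KRT8, a keratin of luminal cells. The mean level of the 9 was 9.28 to 9.32 in the arrays of clone 3 and 9.18 to 9.21 in those of clone 6. No measured marker of basal cells (4 genes), fibroblasts (3), endothelium (4), leukocytes (3) or adipocytes (2) reached the 75th percentile in all 6 arrays. The mean levels of these lists were 3.43 to 4.65 in clone 3 and 3.40 to 4.74 in clone 6, against a 40th percentile of 3.58 to 3.62 in the 6 arrays. The fibroblast markers DCN and LUM, the endothelial marker PECAM1 and the basal keratin KRT5 were below that percentile in all 6 arrays, whereas THY1, OXTR, PLIN1 and LEP were among the markers above it in all 6. In RNA from whole cultures, fewer cells with a transcript and less of it per cell cannot be told apart.

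Clone 3 and clone 6 differed in 1095 of 12147 genes (9.01%), called in limma at a Benjamini-Hochberg adjusted p below 0.05. Of these, 602 were higher in clone 3 (4.96% of the genes tested) and 493 were higher in clone 6 (4.06%). After a renewed quantile normalization the balance turned, with 529 higher in clone 3 and 590 higher in clone 6. At least 2-fold were 111 of them (0.914%), 51 higher in clone 3 and 60 higher in clone 6, and 5 in each direction were at least 4-fold. The 3 arrays of one clone all lay above the 3 of the other in 3092 genes (25.5%), of which 1741 had clone 3 above and 1351 clone 6 above, and 1080 of the called genes were among them. A lack of overlap in a called gene named below therefore adds little to its call. The median size of a called difference was 0.53, the smallest was 0.28 and the median standard error over all genes was 0.13. The median difference over all genes was 0.02. When one array was left out, the total fell as low as 751 (without clone 6 replicate 3). The genes higher in clone 3 numbered 397 without clone 3 replicate 2, and those higher in clone 6 numbered 319 without clone 6 replicate 3.

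**Figure D1:**
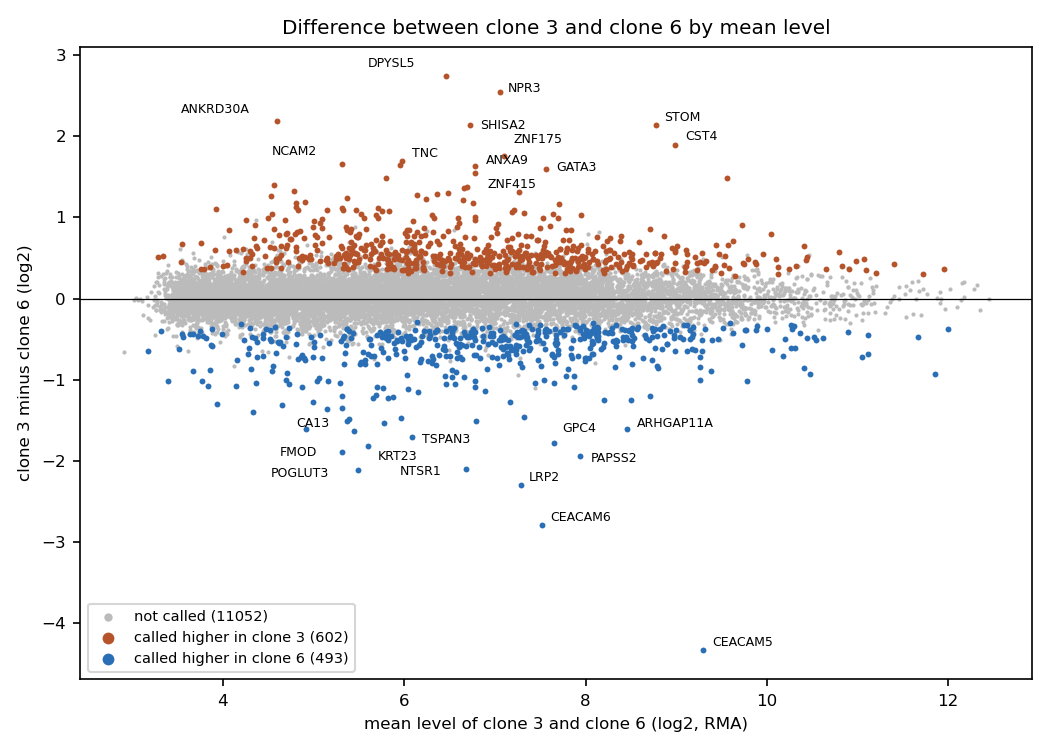
Difference between the clones (vertical axis, log2, clone 3 minus clone 6) against the mean level of both clones (horizontal axis, log2), one point per gene, with the 602 genes called higher in clone 3 in orange, the 493 called higher in clone 6 in blue and the others in grey. The 12 protein-coding genes with the largest differences in each direction are named, and CEACAM5 at -4.34 lies far below all others.

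The largest difference was in CEACAM5, the carcinoembryonic antigen of epithelial tumours, and CEACAM6, its neighbour on chromosome 19, came next. CEACAM5 read 7.44, 7.19 and 6.77 in clone 3 and 11.47, 11.48 and 11.46 in clone 6. Every array of clone 6 thus lay 4 log2 units or more above every array of clone 3, and the arrays of clone 6 were nearly equal. The difference was -4.34 (SE 0.15), a 20.2-fold higher level in clone 6 (limma adjusted p = 2.11e-11). Parental cells were at 8.44 ± 0.22 (SD, n = 3), clone 1 at 11.44 ± 0.10 and clone 2 at 11.16 ± 0.16, so that clone 3 lay below the parental level and clone 6 within the range of clones 1 and 2.

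CEACAM6 read 5.72, 6.49 and 6.15 in clone 3 and 8.64, 9.02 and 9.09 in clone 6. The difference was -2.80 (SE 0.32), or 6.94-fold (limma adjusted p = 4.38e-05). Here clone 3 was at the parental level (6.12 ± 0.39 against 6.15 ± 0.21), while clone 6 was above clones 1 (7.71 ± 0.59) and 2 (6.84 ± 0.76). CEACAM1, a widely expressed member of the family that can signal into the cell, read 6.23, 6.21 and 6.10 in clone 3 and 7.27, 7.16 and 7.03 in clone 6. It was 1.96-fold higher in clone 6 (-0.97, SE 0.10, limma adjusted p = 1.75e-05). Of 10 tested family members, 3 were called (30%), all higher in clone 6, and the median difference of the 10 was -0.13. The other 7 were not called, among them CEACAM7, chosen after its values were seen, which read 6.56, 7.37 and 7.24 in clone 3 and 7.07, 7.36 and 7.53 in clone 6. CEACAM genes are close copies of each other, and how far the probes for one read another was not tested.

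The 250 bases before the start of each of the 3 called genes are shown because these members of the family moved in the same direction. They are given in the RefSeq sequence of GRCh38.p14, 5′ to 3′ on the strand of the gene, with the motif CACGTG in capitals.
CEACAM5 promoter, chr19:41708376-41708625, plus strand: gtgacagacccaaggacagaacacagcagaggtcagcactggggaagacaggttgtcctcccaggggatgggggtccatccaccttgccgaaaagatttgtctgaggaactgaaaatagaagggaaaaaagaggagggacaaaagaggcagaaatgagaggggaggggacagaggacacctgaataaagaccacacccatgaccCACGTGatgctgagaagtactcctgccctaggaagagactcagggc
CEACAM6 promoter, chr19:41755280-41755529, plus strand: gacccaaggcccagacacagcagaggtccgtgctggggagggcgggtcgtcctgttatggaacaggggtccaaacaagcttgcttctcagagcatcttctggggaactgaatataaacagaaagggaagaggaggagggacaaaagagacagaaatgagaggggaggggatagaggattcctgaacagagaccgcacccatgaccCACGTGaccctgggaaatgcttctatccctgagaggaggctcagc
CEACAM1 promoter, chr19:42528482-42528731, minus strand: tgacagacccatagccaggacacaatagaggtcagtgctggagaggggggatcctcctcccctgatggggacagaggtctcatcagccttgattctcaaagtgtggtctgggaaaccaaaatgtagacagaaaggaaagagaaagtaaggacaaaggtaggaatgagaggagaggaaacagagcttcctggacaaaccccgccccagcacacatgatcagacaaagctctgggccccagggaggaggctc
In global alignments 190 of the 250 bases of CEACAM5 were identical in CEACAM6 (76.0%), 172 were identical in CEACAM1 (68.8%), and 179 bases of CEACAM6 were identical in CEACAM1 (71.6%). CACGTG, which reads the same on both strands, begins 46 bases before the start of CEACAM5 and 45 bases before that of CEACAM6, and was not found in the window of CEACAM1. Of all 35116 promoter windows of this length in the table, 2228 (6.34%) hold it, and of the 12899 windows of tested genes 1023 (7.93%). A match of letters is a description and does not show that a factor binds there. The windows of the family members that were not called were not compared with these.

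Among the other genes with large differences, LRP2, NTSR1, PAPSS2 and POGLUT3 were higher in clone 6. LRP2, or megalin, an endocytic receptor of the cell surface, read 6.31, 6.14 and 5.96 in clone 3 and 8.77, 8.21 and 8.34 in clone 6. The level in clone 6 was 4.93-fold higher on average (-2.30, SE 0.17, limma adjusted p = 4.46e-07). NTSR1, the receptor of the gut and brain peptide neurotensin, read 5.70, 5.92 and 5.28 in clone 3 and 7.75, 7.59 and 7.85 in clone 6, a 4.28-fold difference (adjusted p = 1.41e-06). Clones 1 and 2 were higher still, at 8.52 ± 0.14 and 8.49 ± 0.32, and parental cells lay between clone 3 and clone 6 at 6.38 ± 0.21.

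PAPSS2, which makes the sulphate donor PAPS, read 7.09, 7.06 and 6.78 in clone 3 and 8.90, 8.89 and 8.93 in clone 6 (3.82-fold, adjusted p = 1.74e-07). The parental level was 6.47 ± 0.01 and that of clones 1 and 2 was 6.33 ± 0.15 and 5.85 ± 0.28, so clone 6 held the highest level of the 5 groups. POGLUT3, an enzyme that adds glucose to secreted and membrane proteins, showed the opposite arrangement. It read 4.46, 4.41 and 4.43 in clone 3 and 6.48, 6.38 and 6.78 in clone 6 (4.34-fold, adjusted p = 4.47e-08), and the parental line and clones 1 and 2 were at 6.87 ± 0.10, 6.77 ± 0.16 and 6.46 ± 0.21. For POGLUT3 it was therefore clone 3 that stood apart from the other 4 groups.

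The remaining genes of this set were FMOD, a small proteoglycan of the matrix (-1.89), KRT23, a keratin (-1.81), GPC4, a cell surface proteoglycan (-1.78), the tetraspanin TSPAN3 (-1.71), the carbonic anhydrase CA13 (-1.64) and ARHGAP11A, which switches off the GTPase RhoA (-1.61), with SE 0.13 to 0.20 and adjusted p 5e-07 to 2.7e-05. In all 6 genes the arrays of the clones did not overlap, as the rule for naming them required. TSPAN3 has 2 probe sets here, and with their mean the difference was -0.90. FMOD and KRT23 were at 4.37 ± 0.06 and 4.69 ± 0.23 in clone 3, nearer to the parental 4.79 ± 0.18 and 4.25 ± 0.21 than clone 6 was, whereas ARHGAP11A was at 8.76 ± 0.01 in parental cells, between clone 3 (7.65 ± 0.21) and clone 6 (9.26 ± 0.04).

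The genes higher in clone 3 were led by DPYSL5, a protein of the cytoskeleton of growing nerve processes, and NPR3, the receptor that clears natriuretic peptides. DPYSL5 read 7.68, 7.62 and 8.22 in clone 3 and 4.53, 5.40 and 5.35 in clone 6, and NPR3 read 8.25, 8.47 and 8.25 against 5.47, 5.85 and 6.02. The lowest array of clone 3 was more than 2 log2 units above the highest of clone 6 for both. The differences were 2.75 (SE 0.21, 6.71-fold, adjusted p = 5e-07) and 2.55 (SE 0.14, 5.84-fold, adjusted p = 3.01e-08). In both genes the parental level (7.83 ± 0.09 and 7.76 ± 0.08) lay by clone 3, and clones 1 and 2 lay by clone 6 (5.72 ± 0.23 and 6.07 ± 0.20 for DPYSL5, 5.45 ± 0.21 and 5.62 ± 0.18 for NPR3).

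STOM, or stomatin, a protein of the inner face of the membrane, read 9.80, 9.95 and 9.78 in clone 3 and 7.37, 7.96 and 7.77 in clone 6 (2.14, SE 0.25, adjusted p = 6.05e-05). SHISA2, which restrains Wnt and FGF receptors, read 8.01, 7.85 and 7.53 against 5.82, 5.50 and 5.65 (2.14, SE 0.17, adjusted p = 9.63e-07). For both the parental means, 9.47 ± 0.07 and 7.83 ± 0.18, were near those of clone 3, and those of clones 1 and 2, 7.57 ± 0.64 and 7.74 ± 0.44 for STOM and 5.76 ± 0.36 and 5.91 ± 0.18 for SHISA2, near those of clone 6. CST4, a secreted inhibitor of cysteine proteases (1.90), ANXA9, an annexin (1.64), and NCAM2, a neural cell adhesion molecule (1.66), had the same arrangement, though NCAM2 was at 7.08 ± 0.32 in parental cells and only 6.15 ± 0.32 in clone 3.

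TNC and ANKRD30A differed from this, since clone 6 alone was low. TNC, the matrix protein tenascin C, read 6.36, 7.0 and 7.10 in clone 3 and 4.94, 5.19 and 5.25 in clone 6 (1.70, SE 0.17, adjusted p = 9.55e-06), and the other 3 groups had means of 6.62 to 6.97. ANKRD30A, a breast differentiation antigen, read 6.19, 5.93 and 4.94 in clone 3 and 3.79, 3.17 and 3.55 in clone 6 (2.18, SE 0.26, adjusted p = 6.72e-05), with 5.17 to 5.68 in the other groups. The lowest clone 3 array was above all clone 6 arrays for each gene, as the rule for naming them required. ZNF175 (1.76) and ZNF415 (1.54), both zinc finger genes of chromosome 19, were higher in clone 3 than in any other group, at 7.98 ± 0.15 and 7.55 ± 0.33.

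**Figure D2:**
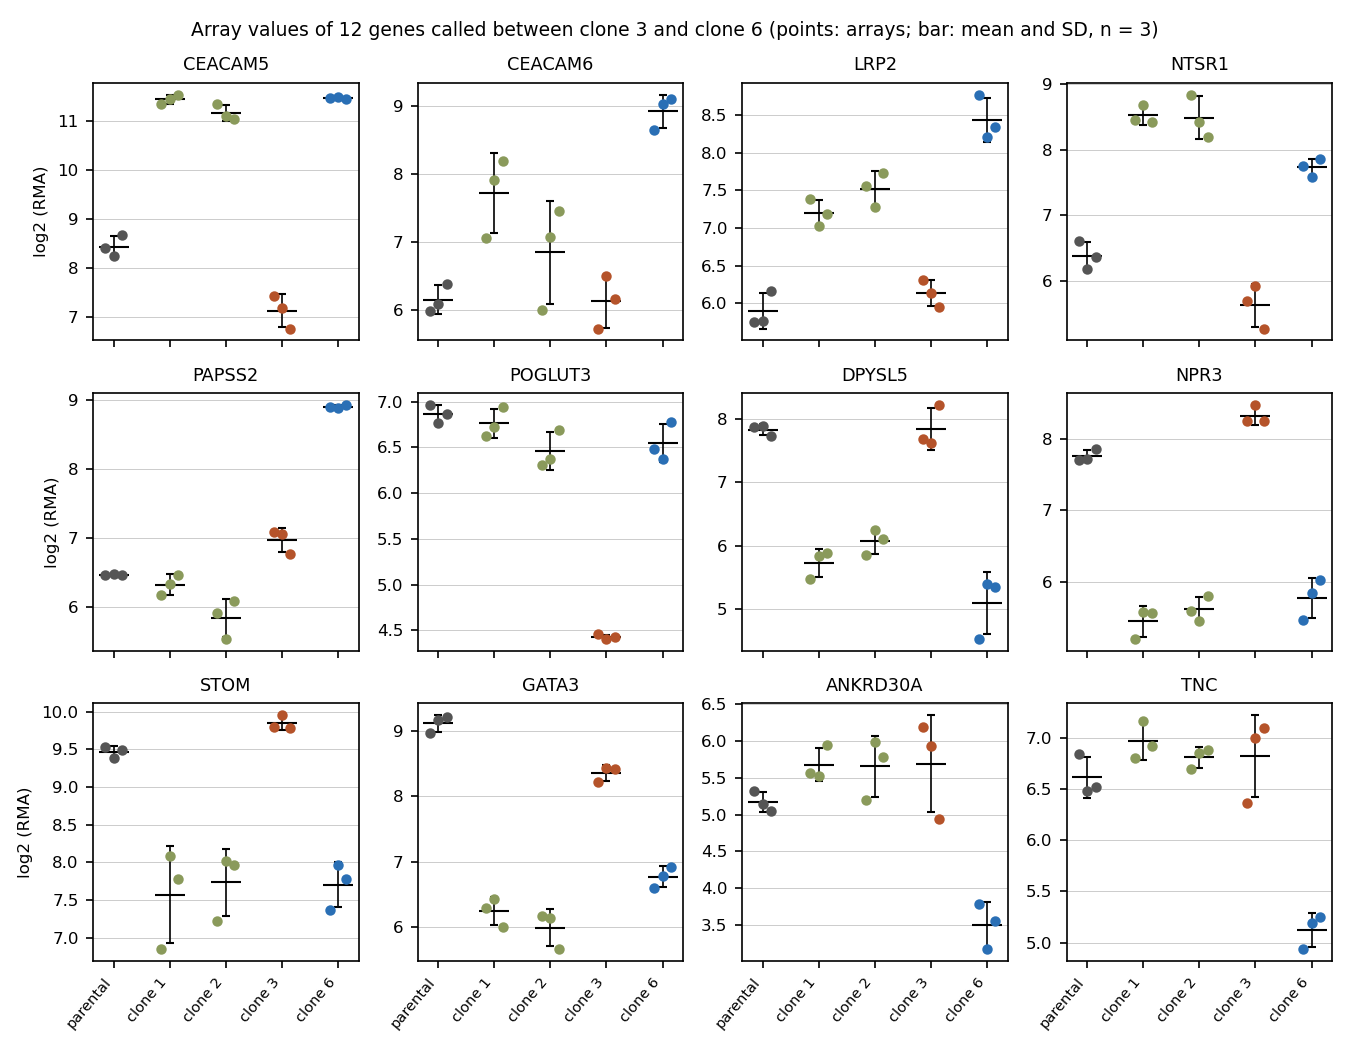
RMA levels (vertical axes, log2, not starting at 0) of 12 genes called between clone 3 and clone 6 in all 15 arrays, one point per array, with mean and SD (n = 3) for parental cells (grey), clones 1 and 2 (green), clone 3 (orange) and clone 6 (blue). In CEACAM5 and NTSR1 clones 1 and 2 lie with or above clone 6, in POGLUT3 clone 3 alone is low, and in TNC and ANKRD30A clone 6 alone is low.

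Among RNAs that do not code for proteins, 31 long noncoding RNAs were called higher in clone 3, 11 were called higher in clone 6 and 855 were not called, a share of 4.68% called against 9.01% of all genes. DSCAM-AS1, a long noncoding RNA known from luminal breast cancer, read 7.06, 6.76 and 6.51 in clone 3 and 6.00, 5.33 and 5.15 in clone 6 (1.28, SE 0.22, adjusted p = 0.0012). LINC00997 (1.19) and the pseudogene ARHGAP27P2 (1.65) were higher in clone 3 as well. TERC, the RNA template of telomerase, read 8.24, 7.90 and 8.18 in clone 3 and 9.03, 9.53 and 9.37 in clone 6 (-1.20, SE 0.16, adjusted p = 0.000113). The small RNAs SNAR-B1 and SNAR-D were lower in clone 3 by -1.27 and -1.15. They belong to a family of near-identical copies that probes may not separate, and the call of SNAR-D was lost without clone 3 replicate 3, clone 6 replicate 2 or clone 6 replicate 3 (adjusted p 0.0588 to 0.0808).

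Of 505 tested microRNA genes 8 were called higher in clone 3 and 3 higher in clone 6, or 2.18% against 9.01% of all genes. Their 15 mature strands in RefSeq (GRCh38.p14) have 15 distinct seeds, the bases 2 to 8 that pair with target RNAs. The arrays read RNA of the gene and do not separate the precursor from the mature strand. One mature strand of each of 4 of these genes is shown, 5′ to 3′ with the seed in capitals, since the values of these genes follow. MIR27B and MIR423 each have another mature strand in the table, which is not printed.
hsa-miR-21-5p: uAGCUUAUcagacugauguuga
hsa-miR-27b-3p: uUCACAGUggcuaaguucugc
hsa-miR-423-5p: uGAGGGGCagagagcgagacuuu
hsa-miR-548an: aAAAGGCAuugugguuuuug
MIR21, a microRNA gene that is highly expressed in many tumours, read 6.90, 6.99 and 6.58 in clone 3 and 6.40, 5.28 and 5.70 in clone 6 (1.03, SE 0.25, adjusted p = 0.0133). MIR27B read 4.83, 4.77 and 4.46 against 4.17, 3.70 and 4.25, MIR423 read 6.27, 5.94 and 5.93 against 5.65, 4.86 and 5.45, and MIR548AN, higher in clone 6, read 4.06, 4.55 and 3.96 against 5.23, 5.47 and 4.90. MIR27B, MIR423 and MIR548AN were chosen after their values were seen. With the mean of its 2 probe sets MIR423 differed by 0.40 (adjusted p = 0.0484), against 0.73 with the brighter one. None of the 4 overlapped between the clones, as held for 1080 of the 1095 called genes. All 4 calls were lost without 1 array, at adjusted p 0.0511 to 0.072 for MIR21 (clone 3 replicate 2, clone 6 replicate 2 or 3), 0.0541 and 0.06 for MIR27B and 0.101 and 0.11 for MIR423 (clone 3 replicate 1 or clone 6 replicate 2), and 0.0551 and 0.0594 for MIR548AN (clone 3 replicate 3 or clone 6 replicate 2).

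The genes that follow are grouped by lists, and the share of each list that was called stands beside its counts. Over all genes it was 9.01% (4.96% higher in clone 3 and 4.06% higher in clone 6). The lists, that of the CEACAM family included, were chosen with earlier results of these data known. A share above 9.01% is therefore a description and not a test of the list. Shares are over tested members, which were 12 of 46 listed for the matrix, 11 of 26 for apocrine products and 14 of 55 for oxidative phosphorylation. Genes of luminal identity were called in both directions. Of 22 tested luminal regulators and oestrogen targets, 3 were higher in clone 3 and 2 higher in clone 6 (22.7% called), with a median difference of 0.01. GATA3 read 8.22, 8.44 and 8.42 in clone 3 and 6.60, 6.78 and 6.92 in clone 6. The level in clone 3 was 3.02-fold higher on average (1.59, SE 0.15, limma adjusted p = 3.96e-06), and parental cells were higher than both clones at 9.12 ± 0.13. Clones 1 and 2 were lower than both, at 6.23 ± 0.21 and 5.98 ± 0.29. ANKRD30A (above) and AGR2, a chaperone of secretory cells (0.72, SE 0.14, adjusted p = 0.00315), were higher in clone 3 too. TFF1, a secreted peptide under oestrogen control, read 11.47, 11.38 and 11.34 in clone 3 and 12.62, 12.12 and 12.22 in clone 6 (-0.92, adjusted p = 0.000371), and XBP1, a transcription factor of secretory cells, differed by -0.51 (adjusted p = 0.00787, or 0.0528 with the 6 arrays alone). ESR1 itself differed by 0.12 (95% confidence interval -0.17 to 0.42), FOXA1 by 0.05 (-0.17 to 0.27) and PGR, the progesterone receptor, by -0.80 (-1.39 to -0.20, adjusted p = 0.093). PGR was read at 8.44, 7.40 and 7.28 in clone 3 and 9.23, 8.07 and 8.22 in clone 6, and its difference was called, at -1.16 (adjusted p = 0.00971), without clone 3 replicate 1.

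Of 11 tested products of apocrine and secretory cells, 3 were higher in clone 3 and 2 higher in clone 6 (45.5% called). CLCA2, an adhesion and channel regulator of the membrane, read 9.99, 10.55 and 10.35 in clone 3 and 8.89, 8.77 and 8.78 in clone 6 (1.48, SE 0.20, adjusted p = 0.000136). HPGD, which breaks down prostaglandins, differed by 0.97 and PIP, the prolactin-induced protein, by 0.81, a call lost without clone 3 replicate 1 or clone 6 replicate 3 (adjusted p 0.0825 and 0.0519). APOD, a lipid carrier of the lipocalin family, read 5.33, 5.07 and 5.22 in clone 3 and 6.95, 6.13 and 6.21 in clone 6 (-1.22, SE 0.20, adjusted p = 0.000816), and LRRC31 differed by -1.40 (SE 0.20). Both APOD and LRRC31 were higher in clone 6 than in any other group, where the highest other means were 5.21 and 3.75. The single called member of 10 keratins (10%) was KRT23.

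Of 9 desmosomal genes 2 were higher in clone 3 and none higher in clone 6 (22.2% called). DSG2, a desmosomal cadherin, read 7.12, 7.23 and 7.06 in clone 3 and 5.57, 6.16 and 5.78 in clone 6 (1.30, SE 0.15, adjusted p = 5.45e-05), and PKP2, a plaque protein, differed by 0.56 (SE 0.12, adjusted p = 0.00571). The parental line and clones 1 and 2 had more DSG2 than either clone, at 7.90 to 8.10. In a list of the other junctions, 0 of 19 genes of tight and adherens junctions were called, with differences from -0.38 to 0.23.

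Of 12 genes of the extracellular matrix and mesenchymal cells, 4 were higher in clone 3 and 1 was higher in clone 6 (41.7% called). Beside TNC these were GPC6, a cell surface proteoglycan (4.92, 5.60 and 5.59 against 4.28, 4.40 and 4.16), THBS1, or thrombospondin 1 (7.91, 7.92 and 7.45 against 6.60, 6.71 and 6.70), and VIM, or vimentin (0.71, SE 0.14). GPC6 and THBS1 both differed by 1.09 (adjusted p = 0.000304 and 7.53e-05), and no array of clone 6 reached the level of clone 3. VIM has 3 probe sets, and with their mean its difference of 0.31 was not called (adjusted p = 0.101). FN1, or fibronectin, was higher in clone 6 (-0.49), a call lost without any 1 of the 6 arrays other than clone 6 replicate 3 (adjusted p 0.0564 to 0.105).

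Among 24 regulators of actin and the cytoskeleton, 4 were higher in clone 3 and 1 was higher in clone 6 (20.8% called). The formins DIAPH2 (0.99, SE 0.13, adjusted p = 0.000145) and DIAPH1 (0.60, SE 0.10, adjusted p = 0.00153), which build actin filaments, and LMO7, a protein of cell junctions (0.78), were higher in clone 3. CNN2, a calponin, differed by 0.48, and its call was lost without any 1 of the 6 arrays or parental replicate 2 (adjusted p 0.0503 to 0.113) and with the mean of its 2 probe sets (0.33, adjusted p = 0.296). MYO6, a myosin, differed by -0.39, and its call was lost without clone 3 replicate 3, clone 6 replicate 1 or clone 6 replicate 3 (adjusted p 0.0505 to 0.0704). CFL2, which severs actin filaments, read 4.39, 4.72 and 3.94 in clone 3 and 3.55, 4.14 and 3.73 in clone 6 and was not called (0.54, 95% confidence interval 0.13 to 0.95, adjusted p = 0.0966). It was called without clone 3 replicate 3 or clone 6 replicate 2 (adjusted p 0.0255 and 0.0478).

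Genes of cell division had differences above 0 in 38 of 48 tested members, but 3 were called higher in clone 3 and 1 higher in clone 6, 8.33% against 9.01% of all genes. The median of the 48 was 0.16, against 0.02 over all genes. The mean level of the 48 was 8.03, 8.05 and 7.92 in the arrays of clone 3 and 7.72, 7.92 and 7.90 in those of clone 6, where clone 3 replicate 3 lies within 0.01 of clone 6 replicate 2. KIF20A, a motor protein of the last step of division, read 8.03, 8.05 and 8.10 in clone 3 and 6.92, 7.35 and 7.22 in clone 6 (0.90, SE 0.13, adjusted p = 0.000312). CDC20, which activates the anaphase-promoting complex, differed by 0.56, and its call was lost without clone 3 replicate 1 or clone 6 replicate 1 (adjusted p 0.0612 and 0.0796). NUSAP1, a spindle protein on chromosome 15, was higher in clone 6 (-0.51), a call lost without clone 3 replicate 3, clone 6 replicate 1 or clone 6 replicate 3 (adjusted p 0.0537 to 0.0748). The call of HMMR (0.49) was lost without any 1 of 10 of the 15 arrays, clone 3 replicates 1 and 2 and all 3 of clone 6 among them (adjusted p 0.0512 to 0.211). CCNB1, the cyclin of mitotic entry, differed by 0.14 (95% confidence interval -0.07 to 0.36) and the kinase PLK1 by -0.09 (-0.38 to 0.20). Of 25 genes of DNA replication 0 were called, between -0.36 and 0.33. Their mean level was 8.19, 8.30 and 8.57 in replicates 1, 2 and 3 of clone 3 and 8.01, 8.43 and 8.76 in those of clone 6. It rose in the same order of replicates in clone 1 (7.80, 8.25 and 8.46) and clone 2 (7.90, 8.18 and 8.53). In parental cells it did not (8.40, 8.23 and 8.28).

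Cell death genes were led by PMAIP1, or NOXA, which opposes the survival proteins of the BCL2 family and is a target of p53. It read 4.99, 4.99 and 5.32 in clone 3 and 6.72, 6.03 and 6.12 in clone 6 (-1.19, SE 0.19, 2.28-fold, adjusted p = 0.000703). The parental line and clones 1 and 2 were at 6.50 ± 0.19, 7.05 ± 0.22 and 7.31 ± 0.33, so clone 3 had the lowest mean of the 5 groups. SESN1, a stress-induced inhibitor of mTORC1, read 6.56, 6.64 and 6.61 against 7.22, 7.27 and 7.49 (-0.72, adjusted p = 0.0033). These were the 2 called members of 15 p53 targets (13.3%). Among 18 genes of death receptors and the BCL2 family, APAF1, the scaffold of the apoptosome, was higher in clone 3 (0.77, SE 0.14, adjusted p = 0.00182) and 3 genes were higher in clone 6 (22.2% called). Beside PMAIP1 these were XIAP, a caspase inhibitor (-0.47), whose call was lost without clone 3 or clone 6 replicate 1 or 3 (adjusted p 0.0538 to 0.0633), and BCL2L13 (-0.43), whose call was lost without clone 3 replicates 2 or 3 or clone 6 replicates 1 or 2 (adjusted p 0.0561 to 0.112). BCL2 differed by -0.19 (95% confidence interval -0.50 to 0.11).

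Of the HER family, 1 of 12 receptors and ligands was called (8.33%, close to the share of all genes). ERBB4 read 5.54, 5.54 and 5.36 in clone 3 and 4.84, 4.27 and 4.47 in clone 6 (0.96, SE 0.14, 1.94-fold, adjusted p = 0.000373). ERBB3 differed by 0.06 (95% confidence interval -0.20 to 0.31) and EGFR by -0.18 (-0.48 to 0.12), with overlapping arrays. HER2 itself was not analysed here. Of 26 genes near it on chromosome 17, 4 were higher in clone 3 and 1 higher in clone 6 (19.2% called). MED24, a subunit of the mediator complex, read 11.30, 11.28 and 11.38 against 10.76, 10.94 and 10.78 (0.49, SE 0.09, adjusted p = 0.00175), and PNMT, which makes adrenaline, differed by -0.74 (SE 0.15, adjusted p = 0.00397). The calls of ORMDL3 (0.40), PGAP3 (0.39) and FBXL20 (0.32) were each lost without 1 of 4 or more arrays (adjusted p up to 0.117, 0.147 and 0.197), namely clone 3 replicates 1 and 3 and clone 6 replicates 2 and 3 for ORMDL3, clone 3 replicates 2 and 3 and clone 6 replicates 1 and 3 for PGAP3, and 12 arrays for FBXL20, all but clone 6 replicate 1, clone 1 replicate 1 and clone 2 replicate 3. GRB7, an adaptor that binds HER2, differed by 0.19 (95% confidence interval -0.09 to 0.46).

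In signalling downstream of the receptors, 4 of 29 genes of MAPK and PI3K feedback were called (13.8%), all higher in clone 6, and the median of the 29 was -0.18. They were SESN1, DEPTOR, an inhibitor of mTOR (-0.95), IRS2, an insulin receptor substrate (-0.49), and PIK3IP1, an inhibitor of PI3K (-0.49). The call of DEPTOR was lost without clone 3 replicates 2 or 3 or clone 6 replicate 1 (adjusted p 0.0604 to 0.0663), that of IRS2 without these or clone 6 replicate 3 (0.0664 to 0.109) and that of PIK3IP1 without clone 3 replicate 3 or clone 6 replicate 2 (0.0799 and 0.0961). Of 27 receptor tyrosine kinases, 2 were higher in clone 3 and 4 higher in clone 6 (22.2% called). RET, the receptor of the GDNF ligands, read 7.86, 8.07 and 8.12 against 8.41, 8.84 and 8.95 (-0.72, adjusted p = 0.00994), a call lost without clone 6 replicate 3 (0.0555). The calls of FGFR2 (-0.52; clone 3 replicate 3 or clone 6 replicate 3, adjusted p 0.058 and 0.0734), EPHB6 (0.63; clone 3 replicates 1 or 3 or clone 6 replicate 2, 0.061 to 0.0655) and EPHA1 (0.52; clone 3 replicates 1 or 3 or clone 6 replicate 3, 0.07 to 0.108) were lost without single arrays too.

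Of 31 receptors of peptides and lipids, 3 were higher in clone 3 and 3 higher in clone 6 (19.4% called). LPAR3, a receptor of lysophosphatidic acid, read 5.59, 4.88 and 5.01 in clone 3 and 3.82, 3.98 and 3.90 in clone 6 (1.26, SE 0.16, adjusted p = 9.11e-05). Clone 3 had a mean of 5.16 ± 0.38, and the other 4 groups had means of 3.89 to 4.15. ACKR3, a scavenger receptor of CXCL12, differed by 0.82 (SE 0.15, adjusted p = 0.00193), whereas CXCR4, the signalling receptor of the same chemokine, differed by -0.32 (95% confidence interval -0.62 to -0.01, adjusted p = 0.213), with the arrays of clone 6 above those of clone 3. NPY1R, a neuropeptide Y receptor, was at 6.14 ± 0.22 in clone 3 and 5.37 ± 0.28 in clone 6, both far below the parental 9.25 ± 0.29. Its call (0.77, adjusted p = 0.0124) was lost without clone 3 replicate 1 or clone 6 replicate 3 (0.0631 and 0.0639).

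Developmental pathways had called members on both sides. In the Wnt list of 26 (15.4% called), FZD2, a receptor, read 5.94, 5.66 and 5.85 in clone 3 and 5.02, 4.97 and 4.99 in clone 6 (0.82, SE 0.11, adjusted p = 0.000148), and RNF43, a ligase that removes Wnt receptors, read 8.33, 8.34 and 8.33 against 7.55, 7.75 and 7.86 (0.61, adjusted p = 0.00972). ZNRF3, the paralogue of RNF43 with the same role, went the other way (-0.57, SE 0.12, adjusted p = 0.00622). LEF1, a transcription factor of the pathway, was higher in clone 6 (-0.89), a call lost without clone 6 replicate 2 (adjusted p = 0.0532). In the Notch list of 24 (20.8% called), the ligand DLL1 read 5.82, 6.24 and 6.04 against 6.84, 7.12 and 7.30 (-1.06, SE 0.13, adjusted p = 7.58e-05), and the coactivator MAML2 differed by -0.88 (SE 0.12), or -0.49 with the mean of its 2 probe sets (adjusted p = 0.0114). The ligand JAG1 was higher in clone 6 with overlapping arrays (-0.74), a call lost without clone 3 replicate 1 or clone 6 replicates 2 or 3 (adjusted p 0.0619 to 0.0757). DTX4, a regulator of Notch, was higher in clone 3 (0.66, SE 0.12), as was MAML1 (0.54), whose call was lost without clone 6 replicate 1 (adjusted p = 0.0541). Of 20 TGF-beta and BMP genes (10% called), BAMBI, a decoy receptor, differed by 0.71 (SE 0.14, adjusted p = 0.00392) and SKI, a repressor, by 0.34, a call lost without any 1 of the 6 arrays but clone 3 replicate 2 (0.0726 to 0.14).

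Of 14 genes of antigen presentation and immune recognition, 2 were higher in clone 3 and 1 was higher in clone 6 (21.4% called). CD47, the surface signal that keeps macrophages from engulfing a cell, read 7.31, 7.44 and 7.26 in clone 3 and 5.94, 5.87 and 6.14 in clone 6 (1.36, SE 0.10, 2.56-fold, adjusted p = 5e-07). VTCN1, or B7-H4, an inhibitor of T cells, read 7.44, 7.09 and 7.23 against 6.11, 5.98 and 6.03 (1.21, SE 0.15, adjusted p = 0.000104). The arrays did not overlap in either gene. B2M, the light chain of MHC class I, differed by -0.39, a call lost without any 1 of 12 of the 15 arrays, clone 3 replicates 1, 2 and 3 and clone 6 replicates 1 and 3 among them (adjusted p 0.0537 to 0.172), and with the mean of its 2 probe sets (-0.30, adjusted p = 0.097). Of 27 interferon-induced genes (3.7% called) only USP18, which damps interferon signalling, was called (-0.36), and without any 1 of 7 arrays (clone 3 replicates 1 and 2, clone 6 replicates 2 and 3 and the 3 parental arrays) that call was lost (0.0537 to 0.152). Of 25 chemokines, cytokines and NF-kB targets (4% called) only CXCL17, a mucosal chemokine, was called (-0.48, SE 0.10, adjusted p = 0.00459).

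In the lysosome, where T-DM1 is degraded, 11.1% of 27 hydrolases and 15.4% of 26 genes of the membrane and trafficking were called. Of the hydrolases, TPP1, a peptidase, was higher in clone 3 (0.53, SE 0.09, adjusted p = 0.0013), and CTSH, or cathepsin H, was higher in clone 6 (-0.71, SE 0.14, adjusted p = 0.00454). ARSA, a sulphatase, was higher in clone 6 as well (-0.44), a call lost without clone 3 replicate 2 or any 1 array of clone 6 (0.0513 to 0.135). Of the membrane and trafficking genes, CD68, a membrane glycoprotein, read 6.19, 5.95 and 5.96 in clone 3 and 8.0, 7.38 and 7.24 in clone 6 (-1.51, SE 0.32, 2.85-fold, adjusted p = 0.00627), and LAMP2 read 8.87, 8.99 and 8.73 against 9.52, 9.44 and 9.52 (-0.63, SE 0.09, adjusted p = 0.00038). No array of clone 3 reached clone 6 in these genes. The mannose 6-phosphate receptors, which carry hydrolases to lysosomes, differed in opposite directions. IGF2R differed by -0.45, a call lost without clone 6 replicate 3 (adjusted p = 0.0517), and M6PR by 0.39, a call lost without clone 3 replicates 2 or 3 or clone 6 replicates 1 or 2 (0.0508 to 0.0934). CTSD, or cathepsin D, differed by -0.07 (95% confidence interval -0.29 to 0.16) and LAMP1 by 0.00 (-0.18 to 0.19).

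Among 28 autophagy genes (7.14% called), RB1CC1, which starts autophagosome formation, was higher in clone 6 (-0.52, SE 0.10, adjusted p = 0.0044), and ATG12 was higher in clone 3 (0.44), a call lost without any 1 of the 6 arrays but clone 3 replicate 1 (0.0536 to 0.146). MVP, the major vault protein and the one tested gene of the efflux and vault list, differed by -0.13 (95% confidence interval -0.44 to 0.17). Of 31 genes of glutathione and oxidative stress 1 was called (3.23%), MGST3, a membrane glutathione transferase (0.52), and its call was lost without clone 3 replicates 1 or 2 or clone 6 replicates 2 or 3 (0.0556 to 0.108).

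Lipid genes were called in 8 of 33 cases for fatty acid synthesis and activation, 3 higher in clone 3 and 5 higher in clone 6 (24.2%). SCD5, a desaturase, read 7.38, 7.15 and 7.31 in clone 3 and 6.25, 6.31 and 6.27 in clone 6 (1.00, SE 0.11, 2.00-fold, adjusted p = 2.15e-05). FAR2, which makes fatty alcohols, differed by 0.58 (SE 0.13, adjusted p = 0.00751). ACACB, the acetyl-CoA carboxylase of mitochondria, read 4.75, 4.48 and 4.73 against 5.78, 5.46 and 5.76 (-1.02, SE 0.12, adjusted p = 5.86e-05), and ELOVL6, an elongase, read 6.14, 5.78 and 5.82 against 6.65, 6.76 and 6.71 (-0.80, SE 0.11, adjusted p = 0.000246). The arrays of the clones did not overlap in SCD5, FAR2, ACACB or ELOVL6. Of 19 genes of cholesterol synthesis (5.26% called) MVK alone was called (0.37), and without any 1 of 6 arrays (clone 3 replicates 1 and 2, clone 6 replicates 1 and 2, clone 1 replicate 2 and parental replicate 1) it was not (0.0501 to 0.169).

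Of 23 genes of hypoxia and glycolysis, 3 were higher in clone 6 and 1 was higher in clone 3 (17.4% called). LDHA, a subunit of lactate dehydrogenase, read 6.60, 6.33 and 6.46 in clone 3 and 7.15, 6.94 and 7.01 in clone 6 (-0.57, SE 0.09, adjusted p = 0.000947), and EGLN3, an oxygen sensor, differed by -0.69 (SE 0.15, adjusted p = 0.0073). The calls of MXI1 (-0.52, any 1 of 9 arrays, clone 3 replicates 2 and 3 and clone 6 replicates 1 and 3 among them, adjusted p up to 0.201) and EPAS1, the factor HIF2 alpha (0.35, clone 3 replicates 1 or 3 or clone 6 replicates 1 or 2, up to 0.129), were lost without single arrays, and that of MXI1 with the mean of its 2 probe sets as well (-0.30, adjusted p = 0.16). Of 14 subunits of oxidative phosphorylation 5 were called (35.7%). COX7B (-0.52, SE 0.10, adjusted p = 0.0044) and UQCRC2 (-0.48, SE 0.10, adjusted p = 0.00737, or 0.0505 with the 6 arrays alone) were higher in clone 6. The calls of COX5A (-0.39), COX5B (0.57) and COX6A1 (0.31) were lost without 4, 3 and 6 of the 6 arrays in turn (adjusted p up to 0.132, 0.0757 and 0.101), COX5A without clone 3 replicates 1 or 3 or clone 6 replicates 2 or 3 and COX5B without clone 3 replicate 2 or clone 6 replicates 1 or 2. With the mean of its 2 probe sets COX6A1 differed by 0.16 (adjusted p = 0.599). Of 46 cytosolic ribosomal proteins (6.52% called), RPS14 (0.52) and RPS7 (0.46) were called higher in clone 3 and RPL10 (-0.41) higher in clone 6, and each call was lost without at least 4 of the 6 arrays in turn, RPS14 keeping it without replicate 3 of either clone, RPS7 without clone 6 replicates 1 and 2 and RPL10 without clone 3 replicate 2 (adjusted p up to 0.148, 0.137 and 0.0817). PAPSS2, XBP1 and KLK6, a kallikrein protease (-0.48), were the single called genes of the lists of 22 amino acid (4.55%), 14 unfolded protein response (7.14%) and 17 kallikrein genes (5.88%), and the call of KLK6 was lost without any 1 of 10 arrays, clone 3 replicates 1, 2 and 3 and clone 6 replicates 1 and 2 among them (0.0501 to 0.176).

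**Figure D3:**
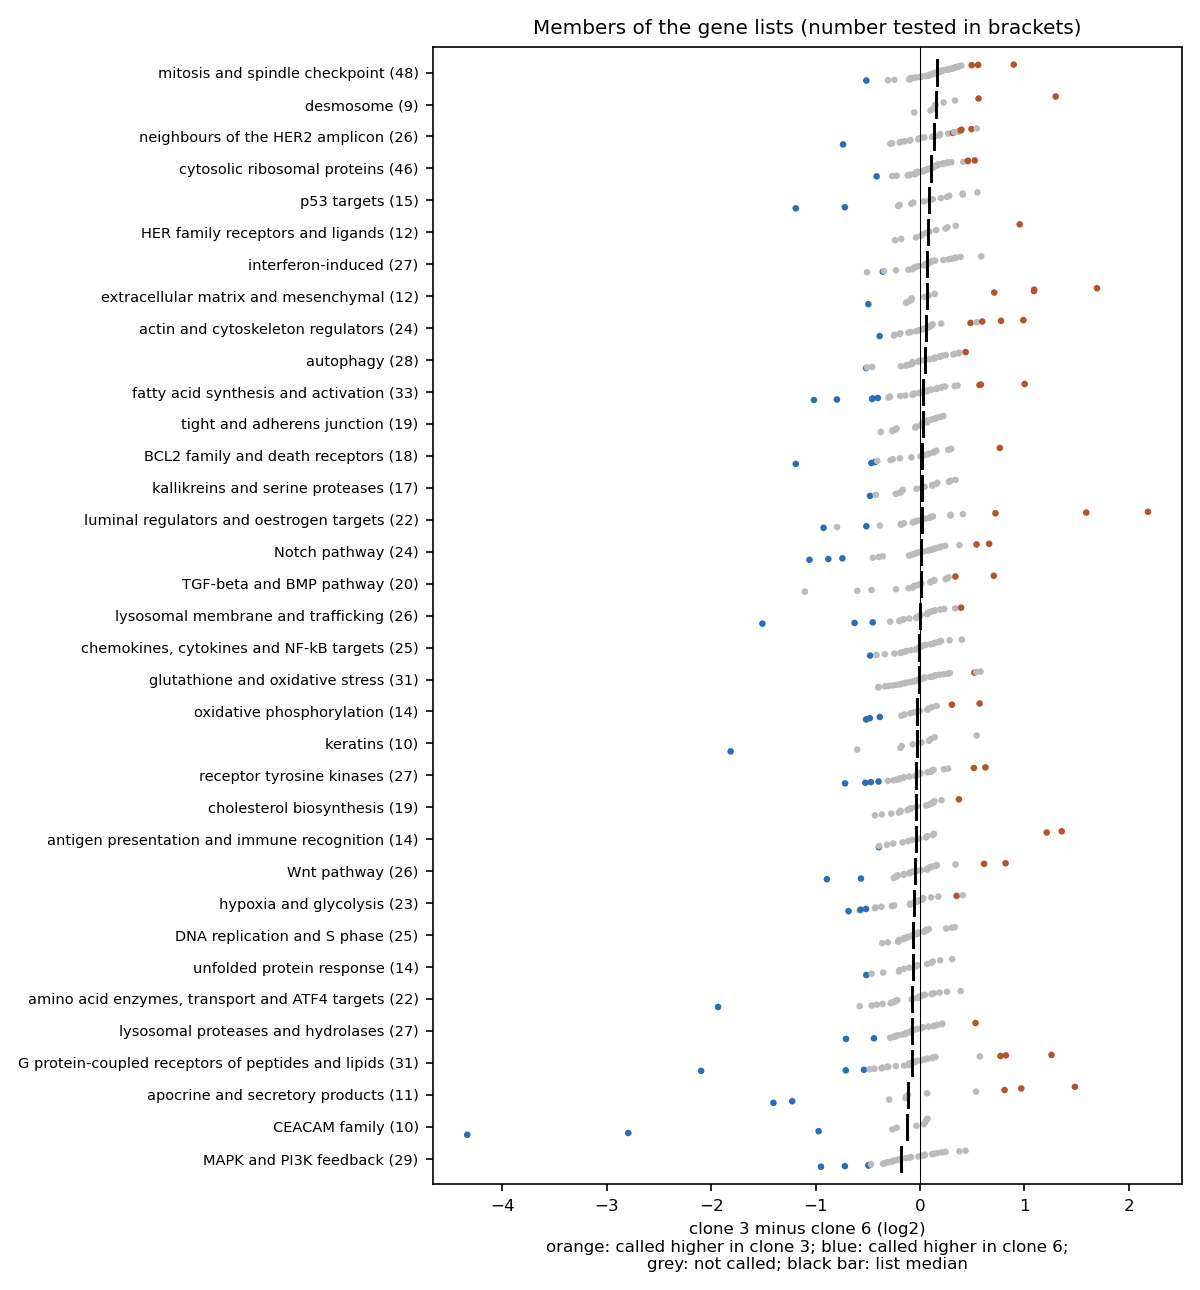
Differences between the clones (horizontal axis, log2, clone 3 minus clone 6) for the tested members of 35 gene lists, one point per gene, orange where called higher in clone 3, blue where called higher in clone 6 and grey where not called, with a black bar at each list's median. Medians run from -0.18 (MAPK and PI3K feedback) to 0.16 (mitosis). In some lists grey points lie as far from 0 as called genes, as in the TGF-beta and BMP list, where an uncalled gene is at -1.10.

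The other 3 groups show which clone lay nearer to the parental level, as a description, since the parental arrays were not part of the contrast. The nearer clone need not be at that level. For GATA3 clone 3 was at 8.36 and clone 6 at 6.77, both below the parental 9.12. The same shares over all genes tested were not computed. Of the 602 genes higher in clone 3, the parental mean lay nearer to clone 3 in 422 (70.1%) and nearer to clone 6 in 180. Of the 493 genes higher in clone 6, it lay nearer to clone 3 in 239 (48.5%) and nearer to clone 6 in 254 (51.5%). The mean of clones 1 and 2 lay nearer to clone 6 in 338 of the 602 (56.1%) and in 320 of the 493 (64.9%). CD47 is an example of a gene with clone 6 far below the parental level of 7.75 ± 0.08, though clone 3 lay somewhat below that level too. POGLUT3 is an example of a gene with clone 3 away from its parental level. SP100, a protein of nuclear bodies, and ELF4, a transcription factor, both chosen after their values were seen, read 5.57, 5.57 and 5.20 and 6.98, 7.02 and 7.02 in clone 3 against 4.11, 3.99 and 4.26 and 5.71, 5.69 and 5.76 in clone 6 (1.32 and 1.29, SE 0.11 for both). Clone 6 lay below the parental means of 5.35 ± 0.04 and 7.53 ± 0.11 in both, and for ELF4 clone 3 lay below the parental mean as well, though less far.

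The called genes were spread unevenly over the chromosomes. Counts by chromosome were made after the data were seen, and neither they nor the medians over neighbouring genes that follow were tested. On chromosomes 5, 9 and 12 most called genes were higher in clone 3, 73 against 9 of 513 tested genes, 77 against 7 of 487, and 73 against 6 of 615. On chromosomes 6, 15, 22 and X most were higher in clone 6, 73 against 8 of 601 genes, 56 against 7 of 384, 38 against 1 of 306, and 66 against 13 of 399. The share of called genes was 16%, 17.2% and 12.8% on chromosomes 5, 9 and 12 and 13.5%, 16.4%, 12.7% and 19.8% on chromosomes 6, 15, 22 and X, against 9.01% over all genes. Chromosome 21 had a share of 13.7%, with 14 genes higher in clone 3 and 6 higher in clone 6 of 146. Called genes leaned to one clone elsewhere too, at shares nearer to that of all genes. More were higher in clone 3 on chromosomes 2 (53 against 16, 8.87% called), 7 (46 against 14, 10.4%) and 17 (49 against 14, 8.09%). More were higher in clone 6 on chromosomes 14 (21 against 5, 6.79%) and 16 (38 against 8, 8.1%). The share was 4.78% to 5.56% on chromosomes 1, 3, 4, 10, 11, 13 and 20. Neighbouring genes can share a region, so they are not independent, and DNA copy number was not measured here.

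**Figure D4:**
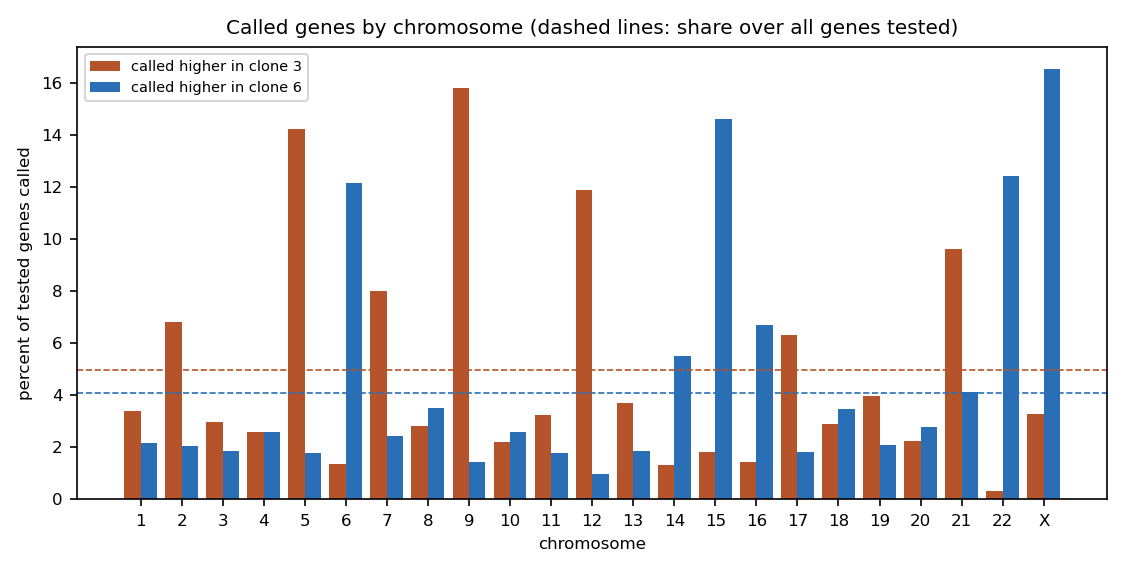
Percent of the tested genes of each chromosome (vertical axis) called higher in clone 3 (orange bars) or in clone 6 (blue bars), with dashed lines at the shares over all genes, 4.96% and 4.06%. Orange bars stand out on chromosomes 5, 9 and 12 and blue bars on chromosomes 6, 15, 22 and X.

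Along most of these chromosomes the shifts were uneven, and the windows described here are the 4 highest and 4 lowest by their medians among windows that do not overlap. Over all 11704 windows of 20 consecutive tested genes, 1% had a median below -0.30 and 1% above 0.32. On chromosome 5 the window from REEP5 to PRDM6 had the highest median, 0.45, with 11 of its genes called higher in clone 3 and 1 higher in clone 6. Its median against parental was 0.37 in clone 3 and -0.05 in clone 6, so it was clone 3 that lay off the parental level. HSD17B4, an enzyme of peroxisomal fat breakdown, read 9.27, 9.30 and 9.26 against 8.74, 8.56 and 8.81 (0.57, SE 0.09, adjusted p = 0.00083), DCP2, an RNA decapping enzyme, differed by 0.65 and PPIC, a cyclophilin, by 0.60. LOX, the collagen cross-linking oxidase in the same window, went the other way (-0.73, SE 0.16, adjusted p = 0.00792).

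The window from SUPT4H1 to MIR4737 on chromosome 17, which holds MIR21, RNF43 and HEATR6, had a median of 0.42 with 11 genes called higher in clone 3. Here clone 6 was lower than parental (median -0.58) and clone 3 was at -0.06. HEATR6 read 9.98, 9.87 and 9.86 in clone 3 and 9.36, 9.13 and 9.25 in clone 6 (0.66, SE 0.09, adjusted p = 0.00024), while MIR454 was not called (0.96, adjusted p = 0.135). The same arrangement was seen from MYO1H to TMEM116 on chromosome 12 (median 0.41, 12 called; -0.33 in clone 6 and 0.03 in clone 3 against parental). Its leading genes TCTN1 (0.99) and IFT81 (0.77), both of the primary cilium, TMEM116 (0.87) and GIT2 (0.66) had adjusted p of 7.35e-05 to 0.00211. It was also seen from TSTD2 to NIPSNAP3A on chromosome 9 (median 0.40, 8 called; -0.39 in clone 6 and -0.05 in clone 3), with GALNT12, an enzyme of mucin-type glycosylation (0.75), ZNF189 (0.66), TSTD2 (0.56) and TEX10 (0.57). The call of TEX10 was lost without clone 3 replicates 1 or 2 or clone 6 replicate 1 (adjusted p 0.0703 to 0.104).

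Windows lower in clone 3 than in clone 6 lay on chromosomes 6, 15 and X. From RORA to ZNF609 on chromosome 15 the median was -0.40, with 9 genes called higher in clone 6, and against parental it was -0.46 in clone 3 and -0.04 in clone 6. PPIB, a cyclophilin of the secretory pathway, read 9.98, 10.01 and 9.97 in clone 3 and 10.80, 10.79 and 10.93 in clone 6 (-0.85, SE 0.11, adjusted p = 0.000104), and C2CD4A (-0.79) and TRIP4 (-0.73) followed. PCLAF, a replication factor, was not called (-0.67, adjusted p = 0.09) but was without clone 6 replicate 1 (-0.89, adjusted p = 0.0342). From MID2 to LONRF3 on chromosome X the median was -0.42, with 8 genes higher in clone 6 and 1 higher in clone 3, and again clone 3 was off the parental level (-0.33 against 0.01). VSIG1 (-1.08), LONRF3 (-0.95) and KLHL13 (-0.69) were lower in clone 3, whereas PLS3, an actin bundler, was higher there (0.77, SE 0.12, adjusted p = 0.000701).

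In the other pair of windows it was clone 6, of these 2 clones, that lay above parental. From ASMTL to MSL3 on chromosome X the median difference was -0.40, with 7 genes called higher in clone 6 and 1 higher in clone 3, and against parental it was 0.33 in clone 6 and -0.04 in clone 3. HCCS, which attaches haem to cytochrome c, read 8.42, 8.40 and 8.27 against 9.11, 9.06 and 9.18 (-0.76, SE 0.09, adjusted p = 7.53e-05), and GYG2, PUDP and ARSD differed by -0.73, -0.58 and -0.68. From MAP3K5 to UTRN on chromosome 6 the median was -0.41 with 10 genes called, all higher in clone 6 (0.21 in clone 6 and -0.07 in clone 3 against parental). PEX7, a receptor for import into peroxisomes (-0.87), UTRN, or utrophin (-0.74), AIG1 (-0.73) and HIVEP2 (-0.64) led it. Clones 1 and 2 were at 0.275 and 0.26 against parental in this window, above clone 6. In the overlapping window of 15 genes from HIVEP2 to UST, clone 3 was at -0.35 and clone 6 at 0.11. Which clone lay farther from parental on this chromosome thus depended on the window. ARSD and HIVEP2 have 2 probe sets each, and with their mean the differences of -0.45 and -0.29 were not called (adjusted p = 0.0789 and 0.059).

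**Figure D5:**
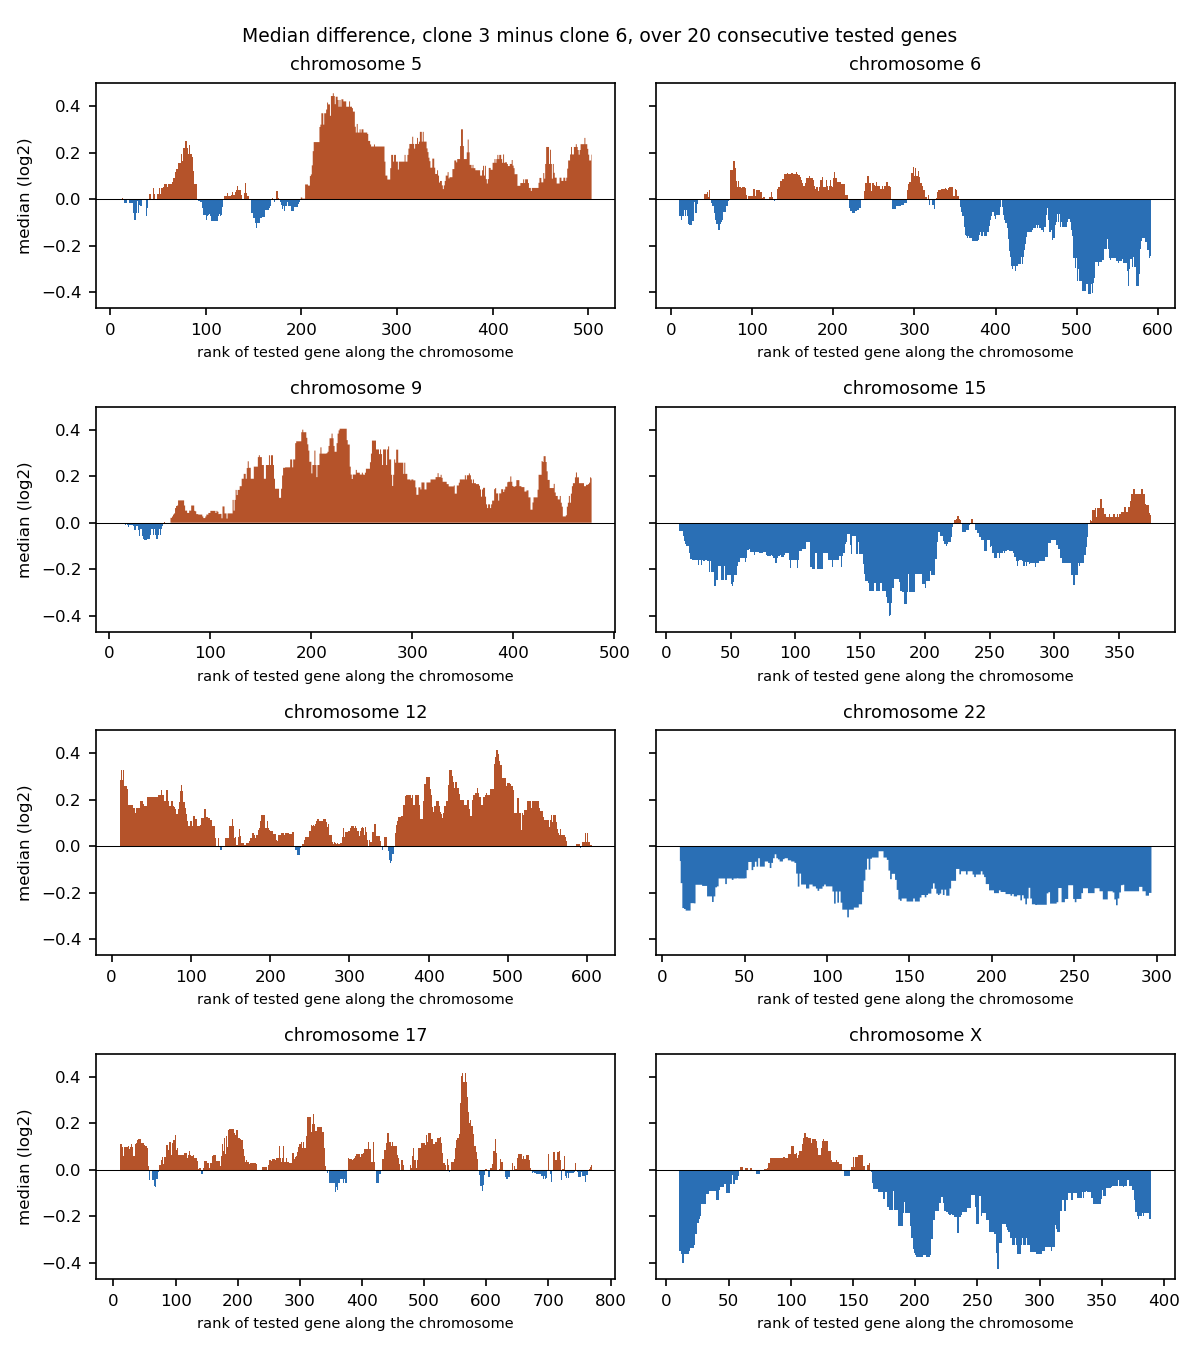
Median difference (vertical axes, log2, clone 3 minus clone 6) over 20 consecutive tested genes against gene rank along the chromosome (horizontal axes), orange above 0 and blue below 0, for chromosomes 5, 9, 12, 17, 6, 15, 22 and X. Chromosome 17 has one narrow peak at 0.42, chromosome 22 is below 0 along its whole length, chromosomes 5 and 6 change from near 0 to a shifted stretch, and chromosome X is lowest at its start and in its later part.

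With windows of 15 genes a stretch of chromosome 19 from ZNF175 to ZNF841 entered the set (median 0.43, 8 genes called higher in clone 3). Against parental its median was 0.17 in clone 3 and -0.49 in clone 6. ZNF175, at the head of it, read 7.81, 8.01 and 8.10 in clone 3 and 6.03, 6.35 and 6.28 in clone 6 (1.76, SE 0.15, 3.39-fold, adjusted p = 1.41e-06).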

How the data were processed

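RNA of 15 BT474 cultures was hybridised to Affymetrix arrays. The deposited values of the 53617 probe sets are log2 levels from RMA, and the submitters' processing notes name RMA, Affymetrix Expression Console 1.4.1 and Transcriptome Analysis Console without their roles. Groups came from the sample titles. Of the probe sets 16098 (30.0%) had 1 gene symbol in the platform annotation, 0 had several and 37519 had none and were left out. Of 14884 symbols 779 had several probe sets, and the probe set that was brightest on average over the 15 arrays was kept. A gene was tested if it lay above the 40th percentile of its own array in at least 3 arrays, which left 12147 genes, all matched to the RefSeq GRCh38.p14 table for name and order only.

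limma 3.58.1 (R 4.3.3) fitted 1 mean per group over all 15 arrays, which then share 1 estimate of the spread. The contrast was clone 3 minus clone 6, with Benjamini-Hochberg adjustment over all 12147 genes and calls at an adjusted p below 0.05. Errors marked SE are limma's moderated standard errors, and intervals are 95% intervals without adjustment for the number of genes. The procedure was tested on simulated data. The number of arrays limits the precision, and p-values measure the spread between cultures that the labels call biological replicates.

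Named genes were the 12 protein-coding genes with the largest called differences and no overlap of arrays in each direction, up to 3 other RNAs in each direction, up to 4 called members per list, leading genes of windows, and a fixed set. The comparison, the lists and the fixed set were chosen with earlier results of these data known. Alternatives covered the filter, the scaling, the choice of probe set, the model, the threshold and each array left out in turn. The replicate numbers of the labels were not used as a block, and a fit that does so was an alternative. Figures were drawn with matplotlib 3.10.9.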

Additional observations from a re-analysis of the deposited data

How the results depend on the processing

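The 1095 called genes became 703 (392 higher in clone 3, 311 higher in clone 6) with the 6 arrays alone and 522 (280 and 242) at an adjusted p below 0.01. With each array left out in turn the total was 751 to 1155, the genes higher in clone 3 were 397 to 640, those higher in clone 6 were 319 to 515 and those at least 2-fold were 108 to 119. The total was 784, 769 and 847 without clone 3 replicates 1, 2 and 3 and 922, 789 and 751 without clone 6 replicates 1, 2 and 3. It was 1062 with no filter on dim genes, 1188 with the 60th percentile, 1119 with renewed quantile normalization (529 and 590), 1047 with arrays centred on their median, 1205 with a trended robust fit, 1257 with array weights and 1076 with the mean of all probe sets. A fit with the replicate block called 1256 genes (695 and 561), CFL2 (adjusted p = 0.04) and PCLAF (0.0107) among them. The deviations of arrays with the same number correlated at 0.27, 0.05 and 0.07 between clones 3 and 6, and not every array correlated best with its own number, so a pairing of these groups was not established. Between clones 1 and 6 the correlations were 0.22, 0.17 and 0.19 and between clones 1 and 2 they were 0.46, 0.09 and 0.34. They were 0.22, 0.10 and -0.12 between clones 1 and 3 and 0.23, 0.03 and -0.03 between clones 2 and 3. Clones 2 and 6 gave 0.14, -0.05 and 0.24. There was thus a hint of sets shared by number in some pairs of clones, and mixed signs in others. The mean level of the DNA replication genes also rose from replicate 1 to replicate 3 in clones 1, 2, 3 and 6, though not in parental cells. Of 154 named called genes 107 kept the call without any 1 array. Differences near 0 changed sign when arrays were left out, namely FOXA1 (-0.04 to 0.12), ERBB3 (-0.022 to 0.104), PLK1 (-0.23 to 0.05), CTSD (-0.14 to 0.007) and LAMP1 (-0.047 to 0.057; -0.017 with array weights). The median of the BCL2 family list was -0.004 after quantile normalization. The window medians were, with arrays left out in turn, 0.38 to 0.47 (REEP5 to PRDM6), 0.37 to 0.45 (SUPT4H1 to MIR4737), 0.37 to 0.44 (MYO1H to TMEM116), 0.37 to 0.48 (TSTD2 to NIPSNAP3A), -0.47 to -0.35 (MID2 to LONRF3), -0.44 to -0.36 (MAP3K5 to UTRN), -0.41 to -0.39 (ASMTL to MSL3; -0.46 after quantile normalization) and -0.45 to -0.33 (RORA to ZNF609). The causes of these changes were not tested.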
